A study of Mus musculus with 108 samples.

Results

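Messenger RNA of 9 genes that write, erase or read DNA methylation was followed through mouse brain development: Dnmt1, Uhrf1, Dnmt3a and Dnmt3b, which write it, Tet1, Tet2 and Tet3, which erase it, and Mbd1 and Mbd2, which read it. These genes were chosen by name for their known functions, with earlier results of these data known, and they are 9 of the 53465 genes in the count table. All 9 passed the filter on low counts in every comparison. On GRCm38 the Gencode annotation places Dnmt1 at chr9:20907209-20959888 on the minus strand, Uhrf1 at chr17:56303321-56323486, Dnmt3a at chr12:3806007-3914443 and Dnmt3b at chr2:153649450-153687730 on the plus strand, and Tet1, Tet2 and Tet3 at chr10:62804570-62908996, chr3:133463679-133545139 and chr6:83362373-83459084 on the minus strand. Counts were summed over the exons of each gene. Exons of Dnmt3a share 133 bases with the antisense gene Dnmt3aos, and those of Tet2 share 43 bases with the antisense gene Gm42567. The libraries were stranded, but the strand setting of the counting is not given in the sources used here, so reads in these stretches could belong to either gene.

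Total RNA was sequenced from the cerebellum (CB), the cortex (CX) and the hippocampus (HIP) of wild-type (WT) and Cul3+/- (HET) mice in late embryos (E17.5), at postnatal day 7 (P7) and in adults (labelled P35). HET mice carry, in the germline and thus in every cell, a 1 bp frame-shifting insertion in exon 6 of Cul3, made by CRISPR/Cas9, and they descend from a single founder bred to WT C57BL/6N mice, a strain written C56Bl/6N in the labels. The WT mice carry no engineered allele. The study states equal numbers of males and females for each genotype and period, but no source used here says which mouse is which. Titles of E17.5 and P7 mice carry a set code (S2, S3 or S4, and C1, C2 or C4) that the labels do not explain, with as many WT as HET mice in each set, and titles of adults carry none. For each period there were 6 mice of each genotype, with 1 library from each region of each mouse, and the totals of the libraries used ran from 15126114 to 44411282 counts. In 1 adult mouse labelled HET and 1 labelled WT, the labels and the quality table of the study gave opposite genotypes. Cul3 in the mouse labelled HET was 95.7, 99.01 and 121 CPM, which are counts divided by the library size, in CX, HIP and CB, and in the mouse labelled WT it was 196, 203 and 227 CPM, so the levels went with the labels. Both mice were left out, which left 5 adult mice of each genotype. In WT libraries the cerebellar markers had a mean sum of 893, 1975 and 3200 CPM in CB at E17.5, P7 and in adults, against at most 174 CPM in CX or HIP, and hippocampal markers were highest in HIP at each period. Markers of choroid plexus, a tissue that lines the ventricles, ran from 6.35 to 4648 CPM among the 6 WT libraries of E17.5 HIP and from 2.755 to 2148 CPM among the 5 of adult HIP. They varied as widely in CB, from 3.37 to 1463 CPM at P7 and 10.1 to 2948 CPM in adult WT mice, and in P7 CB their mean was 304 CPM in WT and 1372 CPM in HET mice. The part of this tissue in the HIP and CB values was not tested.

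Methyl groups on cytosine, mostly where a guanine follows, are set by the de novo enzymes Dnmt3a and Dnmt3b and are copied to the new strand after replication by Dnmt1, which Uhrf1 brings to hemimethylated sites. Tet enzymes oxidise the methyl group, which starts its removal, and proteins with a methyl-CpG-binding domain such as Mbd1 and Mbd2 bind methylated DNA and recruit repressors. Dividing cells depend on the copying step, while young neurons are known for a postnatal wave of Dnmt3a that also places methylation outside CpG sites.

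Since Dnmt1 and Uhrf1 belong to the replication machinery, the 250 bases before the annotated starts of the members were searched for 4 words of the type bound by E2F factors, which drive genes of DNA replication: TTTCCCGC, TTTCGCGC, TTTGCCGC and TTTGGCGC, on both strands. RefSeq (GRCm38.p6) gave 12 such windows for 7 members, and 2 windows held a word, 1 of Uhrf1 and 1 of Dnmt1. Of all 32851 windows in the table, 611 (1.9%) held one. The Uhrf1 word lies 177 bases before an alternative start, 992 bases from the 5′ end that Gencode gives the gene, in a window with 30 CpG sites, against a median of 6 over all windows, and the window holds no annotated exon. The Dnmt1 word, GCGCGAAA, lies 211 bases before a start at chr9:20952623, inside an annotated exon and 7265 bases from the Gencode 5′ end. The windows nearest the Gencode 5′ ends of Uhrf1 (16 bases away, 10 CpG sites) and Dnmt1 (0 bases away, 2 CpG sites) held no word. The sequences show the Uhrf1 window with its word in capitals, and for comparison a Dnmt1 and a Dnmt3b window that hold no word.
Uhrf1, chr17:56304063-56304312, plus strand, 5′ to 3′: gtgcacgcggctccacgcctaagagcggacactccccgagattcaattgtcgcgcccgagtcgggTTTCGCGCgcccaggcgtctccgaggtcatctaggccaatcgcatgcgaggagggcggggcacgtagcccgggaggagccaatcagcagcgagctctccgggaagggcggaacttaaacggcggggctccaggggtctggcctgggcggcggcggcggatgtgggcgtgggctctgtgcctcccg
Dnmt1, chr9:20952980-20953229, minus strand, 5′ to 3′: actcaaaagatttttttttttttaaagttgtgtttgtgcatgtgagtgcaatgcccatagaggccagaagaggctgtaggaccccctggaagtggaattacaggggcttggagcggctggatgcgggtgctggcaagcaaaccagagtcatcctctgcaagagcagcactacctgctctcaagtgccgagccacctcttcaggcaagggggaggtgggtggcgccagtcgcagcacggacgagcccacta
Dnmt3b, chr2:153649199-153649448, plus strand, 5′ to 3′: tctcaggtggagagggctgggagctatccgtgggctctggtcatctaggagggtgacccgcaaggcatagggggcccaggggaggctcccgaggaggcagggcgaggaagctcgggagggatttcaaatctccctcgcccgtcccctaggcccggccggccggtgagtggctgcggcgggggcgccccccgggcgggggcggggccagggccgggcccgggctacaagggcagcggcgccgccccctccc
The Dnmt1 window printed holds 7 CpG sites and the Dnmt3b window 21. A word in a window is a match of letters, and a window without one says only that these letters are not in it.

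In WT mice the levels of the 9 genes, in TMM-normalised CPM, spanned very different ranges over the 9 groups of period and region. The ratio of the highest to the lowest group mean was 198 for Uhrf1, 10.7 for Dnmt3b, 4.53 for Dnmt3a, 4.31 for Dnmt1, 3.596 for Tet1, 3.46 for Tet3, 2.70 for Tet2, 2.35 for Mbd2 and 1.40 for Mbd1. The same ratios in HET mice were 180.4 for Uhrf1, 10.5 for Dnmt3b, 4.03 for Dnmt3a and 1.46 for Mbd1. RNA of whole tissue was measured, so fewer cells of a type and less RNA per cell cannot be told apart.

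**Figure D1:**
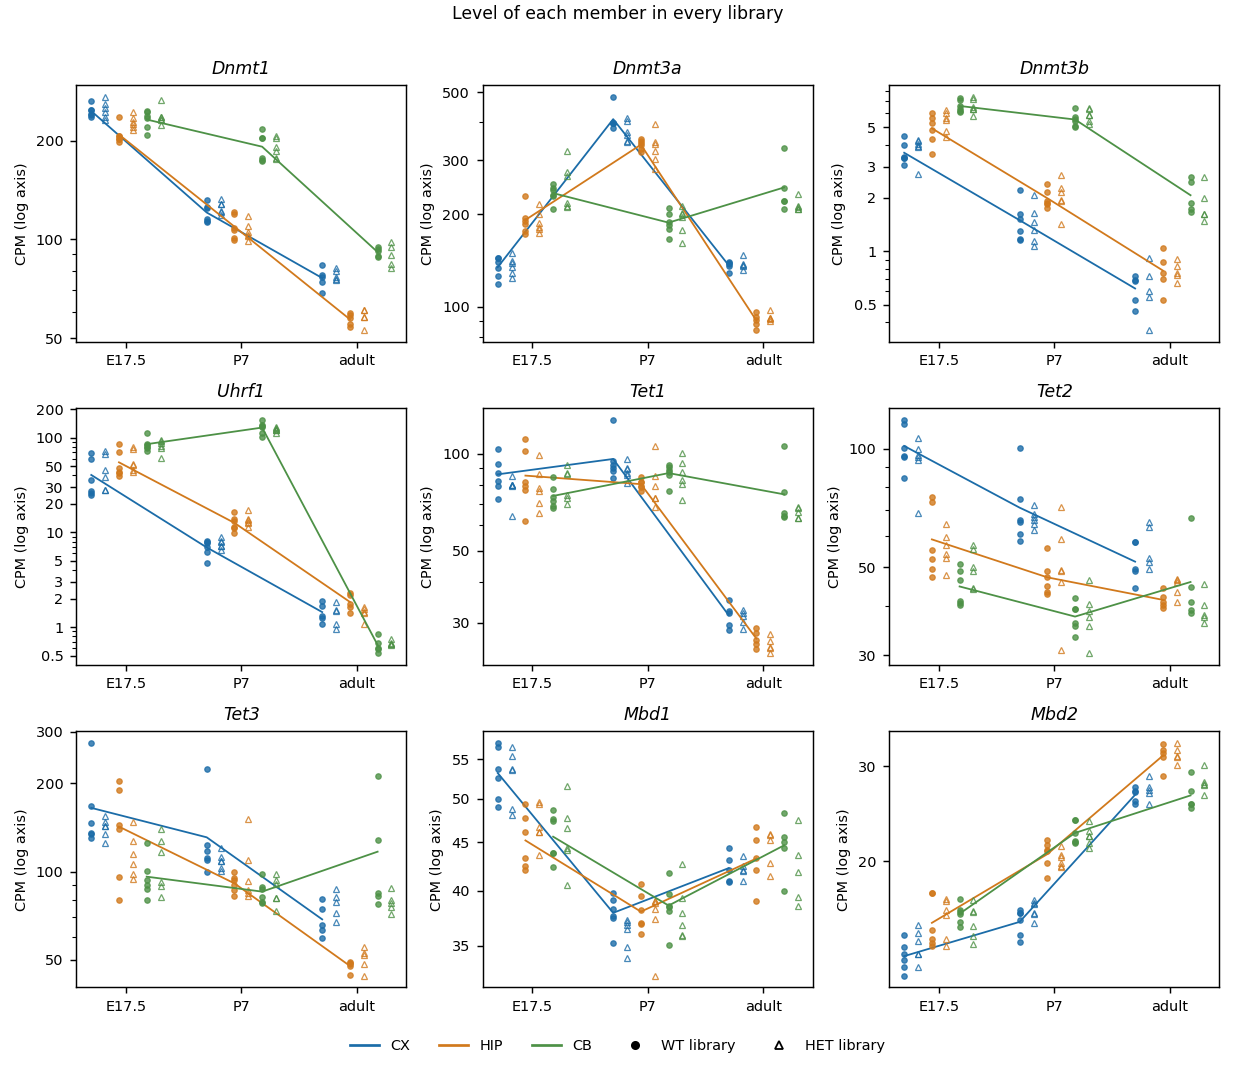
Level of each member in CPM (log axis) in every library by period, region and genotype, with 1 point per library. Uhrf1 falls from 103 to 155 CPM in P7 CB of WT mice to between 0.533 and 0.846 CPM in adult CB, while Mbd1 stays between 35.1 and 57.3 CPM in all WT groups.

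Dnmt1, which copies methylation at replication, was highest before birth and fell at each step. In WT mice at E17.5 the lowest, median and highest library held 236, 244 and 264 CPM in CX, 198, 204 and 236 CPM in HIP, and 208, 236 and 246 CPM in CB. At P7 they held 113, 120.0 and 132 CPM in CX, 99.7, 108 and 121 CPM in HIP, and 173, 191 and 217 CPM in CB. Adult WT libraries held 76.8, 83.4, 74.3, 78.1 and 68.9 CPM in CX, 59.6, 54.3, 58.9, 57.8 and 55.2 CPM in HIP, and 89.0, 91.9, 88.3, 93.8 and 94.6 CPM in CB. Every P7 library of CX and HIP was thus below every E17.5 library of the same region, and every adult library below every P7 library, while E17.5 and P7 overlapped in CB. The fall from E17.5 to P7 was 1.08 ± 0.05 (SE) on the log2 scale in CX (edgeR quasi-likelihood test, adjusted p = 7.9e-19), 0.97 in HIP and 0.29 in CB, and from P7 to adult it was 0.63, 0.90 and 1.05. All 6 changes passed an adjusted p of 0.05.

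Uhrf1, the partner that recognises hemimethylated DNA, had the widest range of the 9 and a different course in CB. WT libraries of E17.5 held 25.0, 31.4 and 68.9 CPM (lowest, median, highest) in CX, 39.5, 45.8 and 85.1 CPM in HIP and 72.4, 81.9 and 113 CPM in CB. By P7 they held 4.77, 7.38 and 8.06 CPM in CX and 9.79, 12.2 and 16.4 CPM in HIP, but 103, 131 and 155 CPM in CB. In adult CB the 5 WT libraries held 0.676, 0.584, 0.533, 0.846 and 0.600 CPM, from 15 to 31 counts each. Adult CX held 1.26, 1.87, 1.69, 1.29 and 1.09 CPM, and adult HIP 1.77, 1.41, 2.16, 2.26 and 1.61 CPM. From E17.5 to P7 Uhrf1 fell by 2.59 ± 0.25 on the log2 scale in CX and by 2.16 in HIP and rose by 0.57 in CB. It then fell by 7.60 ± 0.15 in CB (adjusted p = 6.1e-29) and by 2.22 in CX and 2.73 in HIP. The region with the highest level at P7 was therefore the one with the lowest level in adults, and at both periods the CB libraries did not overlap those of CX or HIP.

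The level of Uhrf1 in single libraries went with that of 8 dividing-cell markers (Mki67, Top2a, Cdk1, Ccnb1, Aurkb, Mcm2, Mcm5 and Rrm2). Their summed level had a WT mean of 591, 711 and 879 CPM in CX, HIP and CB at E17.5, 106, 164 and 1259 CPM at P7, and 26.3, 25.8 and 25.99 CPM in adults. Across the 51 WT libraries Pearson's r of log2 CPM with the mean of these markers was 0.996 for Uhrf1, 0.910 for Dnmt1, 0.863 for Dnmt3b, 0.599 for Tet1, 0.389 for Tet3, 0.118 for Dnmt3a, 0.109 for Tet2, 0.102 for Mbd1 and −0.664 for Mbd2, and in HET libraries it was 0.996 for Uhrf1 and 0.922 for Dnmt1. These libraries share period, region and, in groups of 3, the mouse, so r is a description. Within E17.5 CX, where Uhrf1 varied most among the embryonic groups, the WT library with the highest marker sum (928 CPM) also had the highest Uhrf1 and the one with the lowest (365 CPM) the lowest. The 2 WT libraries of set S3, replicates 3 and 4, held the highest values of both in this group. Dnmt1 differed from Uhrf1 in keeping a level after birth: in adult CX, HIP and CB its means were 76.3, 57.1 and 91.5 CPM, while the marker sum was close to 26 CPM in each. At these like sums Uhrf1 had means of 1.44, 1.84 and 0.648 CPM, so that it did not go with the markers among adult regions.

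**Figure D2:**
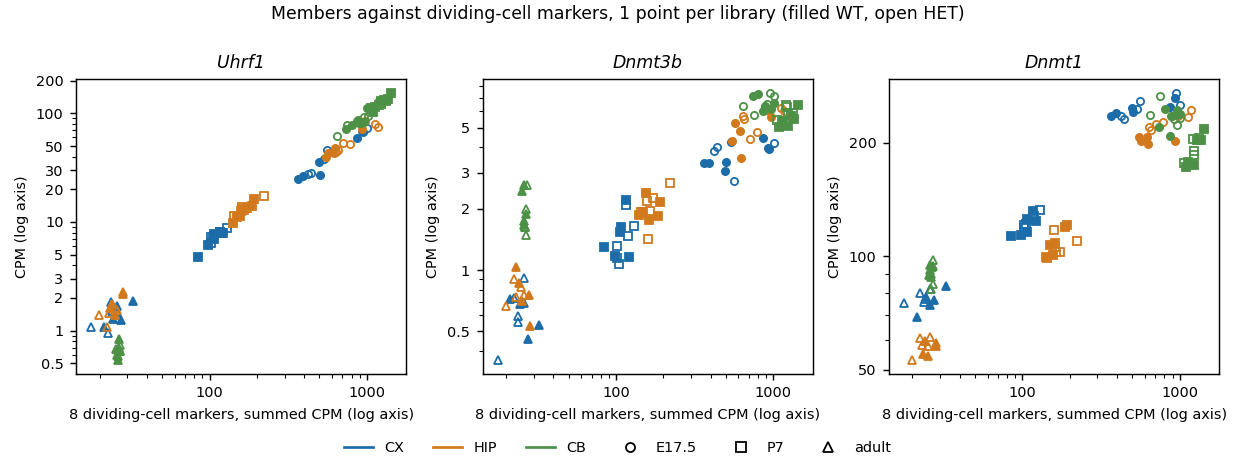
Level of selected members against the summed level of 8 dividing-cell markers, both in CPM on log axes, with 1 point per library (filled for WT, open for HET). Uhrf1 rises with the markers from adult to embryonic libraries (r = 0.996 in WT), but in adults it is lower in CB than in CX or HIP at like marker sums. For Dnmt3b r was 0.863 and for Dnmt1 0.91 in WT.

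Dnmt3a, the de novo enzyme of postnatal neurons, moved in opposite directions in forebrain and CB. WT libraries of CX held 119, 137 and 144 CPM (lowest, median, highest) at E17.5 and 382, 397 and 483 CPM at P7, and the 5 adult libraries held 136, 139, 140.3, 138 and 129 CPM. HIP went from 173, 188 and 229.9 CPM at E17.5 to 319.9, 339.9 and 352 CPM at P7 and to 84.0, 90.5, 96.3, 92.4 and 88.1 CPM in adults. CB held 208, 236 and 252 CPM at E17.5, 166, 186 and 209.7 CPM at P7, and 221, 221, 329.5, 244 and 208 CPM in adults. P7 thus stood above both other periods without overlap in CX and HIP, and in CB it was the period of the lowest mean (188 ± 15.3 CPM, SD, n = 6). On the log2 scale Dnmt3a rose from E17.5 to P7 by 1.55 ± 0.06 in CX (adjusted p = 6.1e-21) and 0.78 in HIP and fell by 0.33 in CB. From P7 to adult it fell by 1.55 in CX and 1.86 in HIP and rose by 0.39 in CB. The CB rise rested in part on WT library 3, at 329.5 CPM: without it the rise was 0.27 (adjusted p = 0.010), and in HET mice the same change was 0.16 ± 0.10 (adjusted p = 0.15). With library totals alone in place of TMM the rise in WT mice was 0.19 and was not called (edgeR, adjusted p = 0.077). Between WT adult CX and E17.5 CX the means, 137 ± 4.55 (n = 5) and 135 ± 10.5 CPM (n = 6), overlapped.

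Dnmt3b, the de novo enzyme best known from early embryos, was rare throughout. Its group means in WT mice were 3.59, 4.93 and 6.59 CPM in CX, HIP and CB at E17.5, 1.498, 1.99 and 5.53 CPM at P7, and 0.618, 0.780 and 2.07 CPM in adults. Adult CB libraries held 2.46, 2.61, 1.67, 1.88 and 1.74 CPM, all above the 1.04 CPM of the highest WT library of adult CX or HIP. It fell at every step in every region, by 1.31 and 1.24 in CX, 1.34 and 1.31 in HIP and 0.27 and 1.40 in CB on the log2 scale. The smallest of these, E17.5 to P7 in CB (adjusted p = 0.031), missed the threshold without any 1 of 4 WT libraries (P7 libraries 4 and 6, E17.5 libraries 3 and 4, adjusted p from 0.063 to 0.075).

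Dividing the CPM by gene length put the 3 methyltransferases of WT mice on one scale. As a share of the summed CPM per kilobase of annotated exon, Dnmt1 made up 79.1% ± 1.6 (SD, n = 6) of the family in E17.5 CX, 39.8% ± 3.0 in P7 CX and 55.4% ± 1.3 (n = 5) in adult CX. HIP went from 69.3% to 41.7% and 58.1%. CB kept 67.1% and 67.6% at E17.5 and P7 and came to 45.4% ± 4.8 in adults. Dnmt3a held nearly all of the rest, with 59.5% in P7 CX, 57.15% in P7 HIP and 53.1% in adult CB, and Dnmt3b had no mean above 2.82% in these WT groups (2.99% in P7 CB of HET mice). With the longest coding transcript as the length instead, the share of Dnmt1 was lower, from 74.0% in E17.5 CX to 32.7% in P7 CX, and in adult CX it was 47.7%, below the 51.8% of Dnmt3a.

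**Figure D3:**
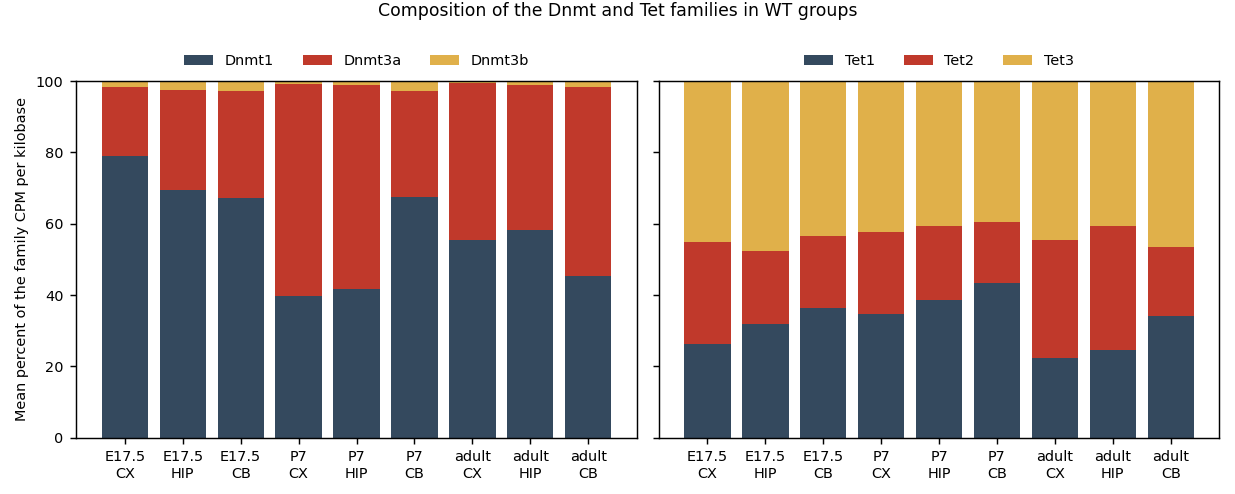
Mean share of each member in the CPM per kilobase of its family, in percent, in the 9 WT groups. Dnmt1 leads at E17.5 and in P7 CB (67.6%), Dnmt3a leads in P7 CX (59.5%), P7 HIP (57.15%) and adult CB (53.1%).

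Tet1, the largest of the Tet enzymes and a binder of CpG islands, showed no called change from E17.5 to P7 in the forebrain and fell after it. Mean levels in WT mice were 86.3 ± 10.9 and 96.3 ± 15.6 CPM in CX at E17.5 and P7 (SD, n = 6), and 85.5 ± 17.8 and 80.5 ± 2.97 CPM in HIP. Adult CX libraries held 32.7, 32.2, 35.3, 28.5 and 29.4 CPM and adult HIP libraries 27.9, 25.7, 28.9, 24.9 and 26.4 CPM, all below the lowest library of either earlier period. The fall from P7 to adult was 1.57 on the log2 scale in CX and 1.55 in HIP, while the change from E17.5 to P7 was 0.11 ± 0.08 (adjusted p = 0.21) in CX and −0.12 (adjusted p = 0.30) in HIP. In CB it rose from E17.5 to P7 by 0.22 (adjusted p = 0.035), a call lost without any 1 of 8 WT libraries, E17.5 libraries 2, 3, 5 and 6 and P7 libraries 1, 3, 5 and 6, and with library totals alone (adjusted p from 0.052 to 0.072). The adult CB libraries held 65.4, 63.9, 105.5, 76.0 and 63.5 CPM against 76.6 to 92.3 CPM at P7, a change of −0.21 (adjusted p = 0.054). Without adult WT library 3, at 105.5 CPM, this change was −0.36 (adjusted p = 0.00018), close to the fall of 0.39 in HET mice (adjusted p = 0.00072).

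Tet2, the Tet enzyme that lacks a domain for binding unmethylated CpG, was highest in embryonic CX. WT means at E17.5 were 101.5 ± 13.1 CPM in CX, 58.9 ± 12.3 in HIP and 44.8 ± 4.68 in CB, with lowest and highest libraries of 84.2 and 118 CPM in CX and 40.2 and 51.0 CPM in CB. At P7 the means were 70.9, 47.2 and 37.6 CPM, and in adults 51.7, 41.4 and 46.0 CPM. It fell from E17.5 to P7 by 0.57, 0.35 and 0.27 in CX, HIP and CB on the log2 scale, and from P7 to adult by 0.42 in CX. The change from P7 to adult was −0.15 in HIP (adjusted p = 0.35). In CB it was 0.30 (adjusted p = 0.015), which came to 0.13 (adjusted p = 0.19) without adult WT library 3, the highest at 66.8 CPM beside 39.0, 38.4, 44.7 and 40.9 CPM. The fall in HIP from E17.5 to P7 was 0.27 (adjusted p = 0.053) without E17.5 WT library 6. The fall in CB at that step (adjusted p = 0.027) missed the threshold without any 1 of 4 WT libraries, E17.5 libraries 1 and 4 and P7 libraries 2 and 5 (adjusted p from 0.054 to 0.072).

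Tet3, the most abundant Tet RNA per length in 8 of 9 WT groups, fell with age in the forebrain but varied widely between libraries. In WT E17.5 CX the lowest, median and highest library held 130.2, 141 and 275 CPM, in P7 CX 99.8, 115 and 223 CPM, and the adult CX libraries held 59.4, 65.7, 74.6, 80.7 and 63.4 CPM. HIP held 80.3, 142 and 204 CPM at E17.5, 82.5, 91.7 and 99.4 CPM at P7, and 48.8, 44.5, 49.0, 47.6 and 48.6 CPM in adults. In CB the adult libraries held 77.7, 82.6, 212, 128 and 84.8 CPM. Adult CX and HIP lay below P7 without overlap, whereas E17.5 and P7 overlapped in all 3 regions. Its change from E17.5 to P7 was −0.38 ± 0.15 in CX (adjusted p = 0.022), −0.68 in HIP and −0.18 in CB (adjusted p = 0.34), and from P7 to adult −0.89 in CX, −0.90 in HIP and 0.46 in CB. The CX call was lost without E17.5 WT library 3, which held the 275 CPM (−0.18, adjusted p = 0.19), and also without P7 WT library 2, 3 or 5 (adjusted p from 0.053 to 0.065). With that embryonic library and P7 WT library 4, at 223 CPM, both left out, a setting chosen after seeing the data, the change was −0.39 ± 0.08 and called. The CB rise was lost without adult WT library 3 (0.14, adjusted p = 0.36) and was −0.13 in HET mice (adjusted p = 0.50). From E17.5 to P7 the change in HET mice was −0.43 in CX (edgeR, adjusted p = 0.011) but −0.21 in HIP (adjusted p = 0.23), which was not called. In E17.5 HIP, WT libraries 1 and 6 held the most Tet3, 189 and 204 CPM. They also had the highest mitochondrial shares of that group, 1.515% and 1.526%.

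The 3 libraries that stood out for Tet genes also had the highest share of mitochondrial counts in their groups. Adult CB WT library 3 had 7.86% of its counts from mitochondrial genes against 4.52% to 4.90% in the other 4, and it held 1.49 times the group median of Dnmt3a, 1.61 times that of Tet1, 1.64 times that of Tet2 and 2.5 times that of Tet3. P7 CX WT library 4 had 2.67% against at most 1.90% in the others, with 1.22, 1.39, 1.53 and 1.94 times the median of the same 4 genes. E17.5 CX WT library 3 had 1.395% against at most 1.12%, with 1.95 times the median of Tet3 and 0.919 times that of Dnmt3a. Over the 18 groups of period, region and genotype, the library with the highest mitochondrial share was also the highest of its group for Tet1 in 13, for Tet2 in 11, for Tet3 in 11 and for Dnmt3a in 8. Other libraries went the other way. HET library 3 of E17.5 CB had the lowest share of its group, 0.771%, and the highest level of all 4 genes (Tet3 139.3 CPM). The same held for HET library 3 of P7 CB, at 1.129% (Tet3 98.2 CPM). How often other genes were highest in the library of highest share was not counted. The part of this share in the Tet values was not tested.

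Mbd1, a reader with methyl-CpG and CXXC domains, was the steadiest of the 9. WT means were 53.2, 45.2 and 45.6 CPM in CX, HIP and CB at E17.5, 37.9, 38.0 and 38.6 CPM at P7, and 42.3, 43.3 and 44.7 CPM in adults. It fell to P7 by 0.54 in CX, 0.28 in HIP and 0.25 in CB on the log2 scale and rose afterwards by 0.19, 0.22 and 0.22. With library totals alone in place of TMM, which moved the median of all genes by −0.15, −0.19 and −0.20 from P7 to adult in CX, HIP and CB, these rises were 0.04, 0.04 and 0.03 and did not pass the test. Mbd2, the reader that joins the NuRD repressor complex, was the single member that rose at every step in every region. Its WT libraries held 12.3, 13.3 and 14.6 CPM (lowest, median, highest) in E17.5 CX, 14.2, 15.8 and 16.2 CPM in P7 CX, and 25.6, 27.1, 26.9, 25.9 and 27.5 CPM in adult CX. Adult HIP was highest, with 28.8, 31.3, 31.8, 32.2 and 33.0 CPM. Mbd2 rose from E17.5 to P7 by 0.16, 0.39 and 0.49 and from P7 to adult by 0.82, 0.64 and 0.24 in CX, HIP and CB, and the last of these was 0.05 with library totals alone (adjusted p = 0.46). Its log2 CPM had an r of 0.917 with the mean of the oligodendrocyte markers over the 51 WT libraries, whose summed level rose from 29.2 to 3786 CPM between E17.5 and adult CX.

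Counted over the 9 members in WT mice, 2 rose and 6 fell from E17.5 to P7 in CX, where 40.3% of all genes tested rose and 39.4% fell. From P7 to adult in CX, 2 rose and 7 fell, against 31.6% and 32.6% of all genes. HIP had 2 that rose and 6 that fell at both steps, against 35.6% and 37.8% of all genes at the earlier step and 28.9% and 27.4% at the later one. In CB 3 rose and 5 fell from E17.5 to P7, against 33.6% and 33.4% of all genes, and 5 rose and 3 fell from P7 to adult, against 38% and 37.4%. That last split depended on the scaling, since with library totals alone 0 rose and 4 fell. From P7 to adult in HIP, library totals alone gave 1 that rose and 7 that fell. HET mice were called for 8, 8, 6, 8, 6 and 6 of the 9 members in the same 6 comparisons, in the order CX, HIP, CB, where 79.5%, 64.6%, 74.2%, 58.1%, 68.2% and 73.7% of all genes were called. Of these calls 8, 8, 6, 8, 6 and 5 were also made in WT mice with the same sign.

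**Figure D4:**
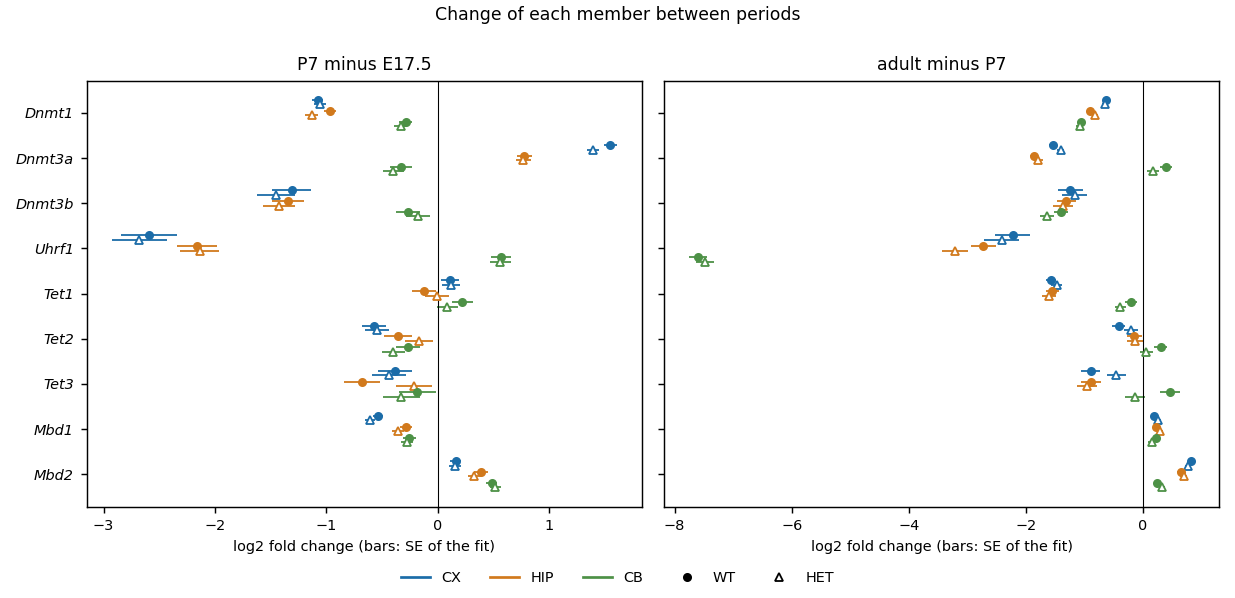
Log2 fold change of each member from E17.5 to P7 and from P7 to adult in CX, HIP and CB for WT and HET mice, with bars for the SE of the fit. Dnmt3a goes from +1.55 to −1.55 in WT CX, and Uhrf1 from +0.57 to −7.60 in WT CB.

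Regions were compared within mice, with the mouse as a block. Mice are numbered here by their CX library. In P7 HIP and in adult HIP and CB the library of a mouse can carry another number. At E17.5 6 of 9 members differed between HIP and CX of WT mice, 7 between CB and CX and 6 between CB and HIP, where 41.6%, 57.3% and 45.4% of all genes did. The writers Dnmt3a, Dnmt3b and Uhrf1 were higher in CB than in CX, by 0.82 ± 0.09, 0.90 ± 0.10 and 1.24 ± 0.23 on the log2 scale, and Tet2 and Tet3 were lower, by 1.16 ± 0.12 and 0.74 ± 0.18 (edgeR, adjusted p from 8.3e-09 to 0.0012 for the Tet genes). Dnmt1 did not pass the test between CB and CX (−0.06 ± 0.04, adjusted p = 0.20), nor did Tet1 (−0.20 ± 0.11, adjusted p = 0.14). Of the 6 differences between CB and HIP, those of Uhrf1, Tet2 and Tet3 were lost without WT mouse 6, and that of Tet3 also without WT mouse 1.

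At P7 8, 7 and 7 members differed in the same 3 comparisons, where 48.9%, 78.1% and 72.6% of all genes did. Uhrf1 was higher in CB than in CX by 4.27 ± 0.07 on the log2 scale (19.3-fold, adjusted p = 1.2e-24), Dnmt3b by 1.96 ± 0.12 and Dnmt1 by 0.72 ± 0.04, while Dnmt3a was lower by 1.06 ± 0.06, Tet2 by 0.84 ± 0.11 and Tet3 by 0.51 ± 0.12. Mbd2 was higher by 0.61 ± 0.04. No such difference was called for Tet1 (−0.08 ± 0.07, adjusted p = 0.34) or Mbd1 (0.09 ± 0.05, adjusted p = 0.086). Between HIP and CX, Uhrf1 was higher in HIP by 0.85 ± 0.07, and Dnmt3a, Tet1, Tet2 and Tet3 were lower by 0.28, 0.26, 0.58 and 0.49. The calls of Tet1 and Tet2 between CB and HIP (0.18 and −0.26) were marginal. Both were lost without the mouse block and without WT mouse 1 or 5. Tet1 was also lost without WT mouse 6 or HET mouse 2, with DESeq2, with upper-quartile normalization and without the low-count filter, and Tet2 without WT mouse 2 or 4 and with library totals alone (adjusted p from 0.053 to 0.16 over all of these).

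In adults 6, 6 and 7 members differed, where 49.2%, 72.6% and 72% of all genes did. Compared with CX, adult CB had more Tet1 by 1.23 ± 0.07, more Dnmt3a by 0.83 ± 0.07, more Tet3 by 0.69 ± 0.15, more Dnmt3b by 1.75 ± 0.21 and more Dnmt1 by 0.27 ± 0.05, and less Uhrf1 by 1.15 ± 0.18. Compared with HIP it had more Tet1 by 1.46 ± 0.07, more Dnmt3a by 1.43 ± 0.07 and more Tet3 by 1.20 ± 0.15, with adjusted p from 2.1e-14 to 2.5e-07. Without WT mouse 3 these were 1.35, 1.32 and 0.94, all still called, and the difference of Tet3 from CX was 0.46 (adjusted p = 0.00023). Tet2 was −0.18 ± 0.11 between CB and CX (adjusted p = 0.13) and −0.30 (adjusted p = 0.0056) without WT mouse 3.

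On the scale of CPM per kilobase of annotated exon, Dnmt1 led the 9 members in all 3 embryonic groups of WT mice, at 33.4, 28.3 and 31.4 in CX, HIP and CB. At P7 Dnmt3a led in CX and HIP, at 24.6 and 20.3, and Uhrf1 in CB, at 30.1, above Dnmt1 at 25.98. In adults Dnmt1 led in CX at 10.35, Mbd2 in HIP at 9.77 and Dnmt3a in CB at 14.7. Dnmt3b was lowest in 8 of the 9 groups, and Uhrf1 in adult CB, at 0.152 against 0.406 for Dnmt3b. The leading gene changed in 1 group, adult CX, when the longest coding transcript was used as the length (Dnmt3a at 14.1, above Dnmt1).

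The course of each gene was next compared with that of 11655 other genes over the 51 WT libraries, as Pearson's r of log2 CPM, with the r over the 51 HET libraries beside it. Closest to Uhrf1 were Dlgap5 (0.996, HET 0.991), Ccna2 (0.996, HET 0.995) and Ube2c (0.995, HET 0.993), all genes of mitosis. Closest to Dnmt1 were Cul7, Cad and Zbed4 (0.976, 0.975 and 0.975), where Cad makes the enzyme that starts pyrimidine synthesis, and closest to Dnmt3b were Col2a1, Chtf18 and Ddx11 (0.968, 0.966 and 0.966), where Chtf18 and Ddx11 act at replication forks. Dnmt3a was closest to B4galt5, Sppl2b and Trim16 (0.911, 0.906 and 0.885). The nearest genes of Tet1 were Trim67, Amer1 and Gpr173 (0.951, 0.941 and 0.941) and of Tet3 Fam78b, Kdm6b and Bcl9l (0.928, 0.928 and 0.926). Kdm6b removes methyl groups from histone H3. Among the genes near Tet2 were Gipr and Sox5 (0.892 and 0.878). The r of Fam78b with Tet3 was 0.742 in HET libraries. Mbd1 was closest to Pnisr, Slf2 and Nfx1 (0.907, 0.903 and 0.901) and Mbd2 to Acss2, Lap3 and Stxbp3 (0.963, 0.950 and 0.950). Libraries of a group share period and region, so these r values describe a shared course over groups.

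Among the members themselves the WT libraries gave r = 0.893 for Dnmt1 with Dnmt3b, 0.884 for Dnmt1 with Uhrf1, 0.795 for Tet1 with Tet3, 0.739 for Tet2 with Tet3 and 0.690 for Dnmt3a with Tet1. Mbd2 ran against most others, with −0.803 for Dnmt1, −0.738 for Tet3 and −0.707 for Tet1.

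A wider list of 44 genes of the pathway was read beside the members, of which 43 were tested. Partners of the writers, among them the chromatin remodeller Hells, its partner Cdca7 and the replication clamp Pcna, fell from E17.5 to P7 in 6 of 6 cases in both CX and HIP, with medians of −1.17 and −0.99 on the log2 scale against 0.02 and −0.04 over all genes, of which 39.4% and 37.8% fell. Hells fell by 2.09 ± 0.23 in CX and Cdca7 by 2.12 ± 0.25. At P7 all 6 were higher in CB than in CX, Hells by 3.22 ± 0.09, where 78.1% of all genes differed in either direction. From P7 to adult in CB 3 of the 6 fell and 1 rose, where 37.4% and 38% of all genes did. The median of the 6 was −1.08 on the log2 scale against 0.009 over all genes, with Cdca7 falling by 5.76 ± 0.18 and Hells by 3.8 ± 0.15.

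Genes of demethylation moved in both directions. For the counts that follow, 40.3% of all genes rose and 39.4% fell from E17.5 to P7 in CX, 35.6% and 37.8% in HIP and 33.6% and 33.4% in CB, and from P7 to adult 31.6% rose and 32.6% fell in CX, 28.9% and 27.4% in HIP and 38% and 37.4% in CB. Of the 11 genes of demethylation, 2 rose and 8 fell from E17.5 to P7 in CX, 1 and 8 in HIP and 7 and 4 in CB. From P7 to adult 3 rose and 2 fell in HIP, and 3 rose and 7 fell in CB. In CX at that later step 5 rose and 4 fell, among them Gadd45a (2.18 ± 0.16) and Gadd45b (2.03 ± 0.17), stress-response genes linked to demethylation, and Idh1, which makes the 2-oxoglutarate that Tet enzymes use and which fell by 2.40 ± 0.11. Of the other methyl-CpG readers, 4 of 8 rose and 0 fell from P7 to adult in both CX and HIP. In CB 5 rose and 1 fell at that step, with Zbtb4, a zinc-finger reader, rising by 2.06 ± 0.07. In the list of NuRD subunits and partners, 8 of 12 fell from E17.5 to P7 in both CX and HIP while Chd5, a neuronal remodeller, rose by 1.36 ± 0.23 in CX. Chd5 was lower in CB than in CX by 3.55 ± 0.12 at P7 and by 3.59 ± 0.13 in adults. Of 6 genes that supply the methyl donor, 4 fell and 1 rose from E17.5 to P7 in CX and 5 fell and 1 rose in HIP, and 4 rose and 0 fell from P7 to adult in both. Over all 43 genes, 6 rose and 31 fell from E17.5 to P7 in CX, 7 and 32 in HIP and 17 and 11 in CB.

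Genotype was tested in each of the 9 datasets of period and region. Cul3 itself fell in HET mice by between 0.74 and 0.99 on the log2 scale and was the 1 gene called at an adjusted p of 0.1 in each dataset. One gene is 0.00603%, 0.00586% and 0.00568% of those tested in CX, HIP and CB at E17.5, 0.00566%, 0.00563% and 0.0057% at P7, and 0.00569%, 0.00584% and 0.00584% in adults. None of the 9 members was called in any dataset: of 81 tests with edgeR 0 passed, 2 had an unadjusted p under 0.05, and the smallest adjusted p was 0.34, and DESeq2 also called 0, with 2 at an unadjusted p under 0.05. The differences ran from −0.59 to 0.20. None of the 43 tested pathway genes was called either.

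The 2 members with an unadjusted p under 0.05 in edgeR were Tet3 in adult CB and Uhrf1 in adult HIP. Of all genes tested, 2459 of 17110 in adult CB and 1070 of 17123 in adult HIP had such a p. With DESeq2, 1 of the 2 lay in adult CB and 1 in adult CX, and 0 in adult HIP. Tet3 in adult CB held 77.7, 82.6, 212, 128 and 84.8 CPM in WT and 71.6, 87.7, 78.4, 79.9 and 76.0 CPM in HET libraries, so that the groups overlapped and 2 WT libraries stood above all the others. The difference was −0.59 ± 0.24 (edgeR, adjusted p = 0.34), and −0.27 ± 0.13 (adjusted p = 0.44) without WT library 3, the library with the high mitochondrial share. Uhrf1 in adult HIP held 1.77, 1.41, 2.16, 2.26 and 1.61 CPM in WT and 1.07, 1.44, 1.61, 1.54 and 1.39 CPM in HET libraries, also with overlap, and the difference was −0.38 ± 0.16 (adjusted p = 0.80). The SEs of Dnmt1, Mbd1 and Mbd2 lay between 0.042 and 0.087 in the 9 datasets. Those of other members were wider in places, up to 0.32 for Uhrf1 in E17.5 CX, 0.246 for Dnmt3b in adult CX and 0.245 for Tet3 in adult CB. Tet3 in adult CB, at −0.59 with an SE of 0.245, was not called. Differences larger than these SEs could therefore have been missed in any of the 9 members.

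**Figure D5:**
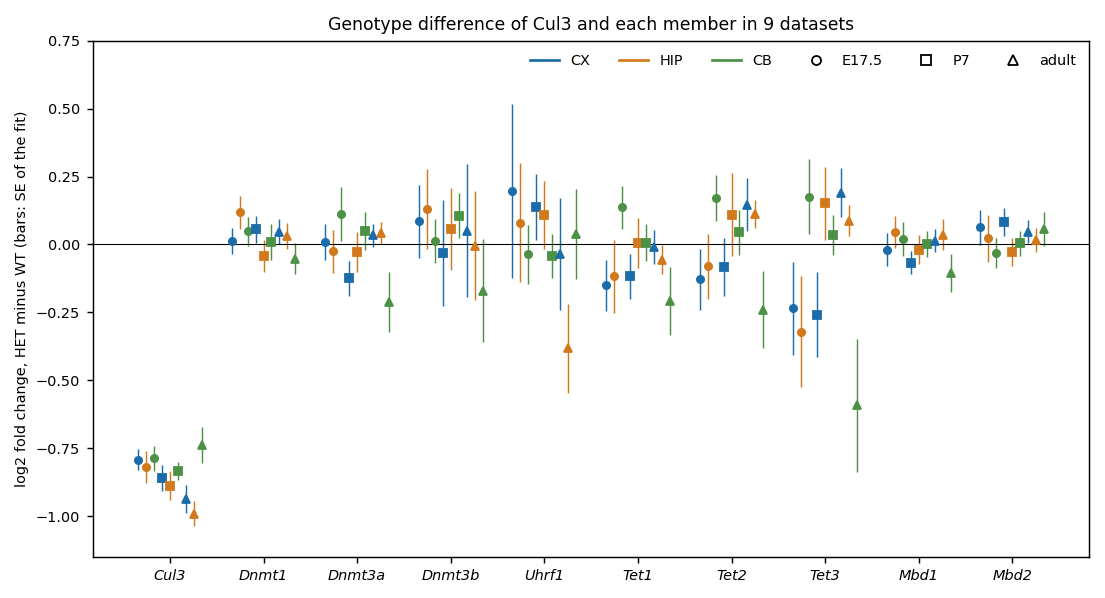
Log2 fold change of HET against WT mice for Cul3 and the 9 members in each of the 9 datasets, with bars for the SE of the fit. Cul3 lies between −0.74 and −0.99, and the members lie between −0.59 (Tet3 in adult CB) and 0.20 (Uhrf1 in E17.5 CX).

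With the 3 regions of each mouse summed, 0 of 27 tests of the members passed with edgeR and 0 had an unadjusted p under 0.05, and DESeq2 gave the same counts. The differences then ran from −0.18 (Tet3 in adults) to 0.11 (Dnmt3b at P7), with a smallest adjusted p of 0.83. Cul3 was again the 1 gene called at each period, 0.00499%, 0.00479% and 0.00491% of those tested at E17.5, P7 and in adults.

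Whether the course over periods differed between genotypes was tested as an interaction. Of 54 such tests of the members, 0 passed an adjusted p of 0.1 with edgeR, 3 had an unadjusted p under 0.05 and the smallest adjusted p was 0.28, and DESeq2 called 0, with 3 at an unadjusted p under 0.05. The edgeR cases were 2 in HIP from E17.5 to P7 and 1 in CB from P7 to adult. Of all genes tested, 1176 of 19245 and 3047 of 19416 had such a p there. Of 81 tests of the difference between regions, 0 passed with edgeR, 6 had an unadjusted p under 0.05 and the smallest adjusted p was 0.19. These 6 were 3 for adult CB against CX and 3 for adult CB against HIP. Of all 19034 genes tested in adults, 3588 and 3666 had such a p in these 2 comparisons. DESeq2 called 2 of the 76 for which it gave an adjusted p, both Tet3 in adults, −0.69 for CB against CX (adjusted p = 0.098) and −0.58 for CB against HIP (adjusted p = 0.094), where edgeR gave −0.70 (adjusted p = 0.20) and −0.58 (adjusted p = 0.19). Without WT mouse 3 the edgeR values were −0.46 (adjusted p = 0.28) and −0.31 (adjusted p = 0.45). Of all genes tested, 0% were called by edgeR in each of these interactions.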

How the data were processed

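RNA was sequenced from 3 brain regions at 3 periods in WT and HET mice, and 102 of the 108 libraries were used. Reads were adapter-trimmed (cutadapt 1.14) and mapped to GRCm38.p5 (STAR 2.5.3a) by the authors, who deposited RSEM 1.3 expected counts per gene, without normalization, and 5.76% of these values were not whole. Depletion of ribosomal RNA in place of poly(A) selection leaves unspliced RNA in the libraries. The labels give paired reads of another length than the study's methods, and this was not resolved.

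After rounding to whole numbers, the counts went into R 4.3.3, into the quasi-likelihood test of edgeR 4.0.16 (limma 3.58.1 installed) after filterByExpr (minimum count 10, minimum total 15) and TMM normalization, over all genes, with Benjamini-Hochberg adjustment. Genotype and interactions were called at an adjusted p of 0.1, periods and regions at 0.05. Region models and their interactions held the mouse as a block, period models did not. Each SE was obtained as the absolute log2 fold change over the root of the F statistic. Levels are CPM on TMM library sizes, and for the correlations of genes and marker scores 0.1 CPM was added before taking log2. The labels give each mouse a number and, at E17.5 and P7, a set code whose meaning they do not state. The sets were not in the models, so p-values measure the spread between these mice across sets.

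The members and gene lists were chosen with earlier results of these data known. The named genes are the 9 members, Cul3, for each member the 3 other genes of highest r in WT libraries (1 of them is not reported here), and of the pathway list up to 2 genes with the largest rise and 2 with the largest fall among those called in a contrast, of which those named in the text are examples.

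The tests were first checked on simulated counts in which 200 genes were changed. The genotype test in E17.5 CX called 86% of genes changed by 1 on the log2 scale and 48% of those changed by less. A period test in CX called 89% and 60%, and a region test at P7 94% and 80%. Of the calls, 6.3%, 4.5% and 7.9% were false, the last above the threshold of 0.05 for regions. Alternatives were upper-quartile normalization, library totals alone, DESeq2 1.42.0, no low-count filter, RUVs with 3 factors, the likelihood ratio test, log2 CPM of Xist as a covariate, both disputed mice under their labels, the replicate number as a block or no block, leaving out each library in turn and, chosen after seeing the data, leaving out 2 libraries of CX together and the set code as a block in the genotype tests. Promoter windows came from RefSeq, and 7 of 9 members matched. Marker genes of cell types and tissues were summed per library.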

Additional observations from a re-analysis of the deposited data

Results flagged for a closer look

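The highest or lowest library of each group was compared with the rest of its group for every member, 162 sets of 5 or 6 libraries in all, and 14 sets held a library whose gap to its nearest neighbour was too large a part of the group's range by Dixon's test. Chance alone marks about 1 in 20 such sets.

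In P7 CX of WT mice library 4 was apart for 3 genes at once, with Tet3 at 222.9 CPM (next 123.2), Tet1 at 127.4 CPM (next 94.78) and Dnmt3a at 483.2 CPM (next 397.9). WT library 3 held Tet3 at 275.2 CPM (next 167.1) in E17.5 CX, and another WT library 3 held Tet2 at 66.81 CPM (next 44.69) in adult CB. These 3 libraries had the highest mitochondrial share of their groups, and the part of that share was not tested. In E17.5 CX of HET mice library 4 was lowest for Tet1 at 64.32 CPM (next 79.41) and Tet2 at 68.81 CPM (next 93.4), and it had the group's lowest mitochondrial share, 0.901%. In P7 HIP, HET library 4 was lowest for Mbd1 at 32.56 CPM (next 37.4), with 1.15% of counts from mitochondrial genes against 2.00% to 3.13% in the other 5.

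Dnmt1 was apart in E17.5 HIP of WT mice at 235.9 CPM in library 3 (next 207.1), the library with that group's highest sum of dividing-cell markers, and in E17.5 CB of HET mice at 265.9 CPM in library 3 (next 236.5). Uhrf1 was apart in E17.5 CB of WT mice at 112.9 CPM in library 6 (next 85.49), again with the highest marker sum of its group, 1006 CPM. Dnmt3a was apart in adult HET mice at 97.8 CPM in HIP library 1 (next 92.17) and 233.2 CPM in CB library 2 (next 212.3), and Dnmt3b in E17.5 CX of HET mice at 2.724 CPM in library 2 (next 3.856).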

How the results depend on the processing

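No called difference changed sign under any alternative run, while 331 values of differences that were not called did. Of 918 recomputed genotype differences with 1 library left out and 648 under other settings, none changed its call, and the same held for the differences summed over regions and for the interactions with period. Changes between periods in WT mice kept their call in 1827 of 1854 values with libraries left out and 255 of 270 under other settings, and differences between regions in 893 of 918, and with other settings 8 of 405 lost and 5 gained a call. Members called between E17.5 CB and HIP ranged from 3 to 6 when 1 mouse was left out, with 3 without WT mouse 6. With DESeq2, 1 interaction of genotype with region was called for adult CB against CX and 1 for CB against HIP, both of Tet3. With library totals alone, 4 members were called from P7 to adult in CB, and the median of all genes moved by up to 0.20 (by at most 0.07 with DESeq2). With that scaling 4 members were higher and 2 lower in E17.5 HIP than in CX, against 3 and 3, and 6 higher and 1 lower in P7 CB than in HIP, against 5 and 2. With the longest coding transcript as length, 53 of 81 ranks of members stayed the same. The cause of these differences was not tested. Of 162 recomputed mean levels, 25 moved by over 1 SD. Counts over all genes moved more than those of the members. Genotype calls, 1 in each dataset, reached 64, 11, 14, 129, 64, 33 and 190 with RUVs in E17.5 HIP, E17.5 CB, P7 CX, P7 HIP, P7 CB, adult CX and adult HIP and 218 with DESeq2 in adult CB, and with regions summed DESeq2 called 3, 28 and 26 in place of 1 at E17.5, P7 and in adults. No member was among these. For the interactions, with 0 calls by edgeR, DESeq2 called 325 genes for adult CB against CX, 699 for adult CB against HIP, 40 from P7 to adult in CB, and from 1 to 11 in the others that it changed. With edgeR, 1191 genes were called for adult CB against HIP and 6 for CB against CX without HET mouse 2, and 339 from P7 to adult in CB without P7 WT library 6.

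Whether the replicate numbers of the labels pair WT with HET mice was not settled. At E17.5 and P7, WT and HET libraries of the same number and region carry the same set code. Correlations of the deviations between libraries of the same number ran from −0.63 to 0.77 over 51 pairs, and 37 were over 0.1. In none of the 9 datasets were all pairs over 0.1 (in E17.5 CX 5 of 6 were). The median was 0.5 in E17.5 CX and −0.01 in P7 HIP. Of the libraries used, 57 correlated best with their own number, among them 10 of 12 in P7 CX and 2 of 12 in P7 HIP. With the replicate block 0 members were called for genotype in each dataset, and 55 genes in place of 1 in E17.5 CX, 2 in adult CX and 0 in adult CB. The block left the members called between periods at 8, 9, 8, 8 and 8, and gave 9 in place of 8 from P7 to adult in CB (Tet1, adjusted p = 0.033). With the set code of the titles as a block, chosen after seeing the data, 0 members were called for genotype in the 6 datasets of E17.5 and P7 and 1 gene in each, and with regions summed 4 and 2 genes in place of 1. Levels went with these sets in places: Uhrf1 in E17.5 CX was 59.7 to 68.9 CPM in WT and 67.5 to 72.6 CPM in HET mice of set S3, against 25.0 to 35.7 CPM and 27.9 to 45.8 CPM in the other sets. Without the mouse block, the members called between P7 CB and HIP were 5 in place of 7.

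Depth limited Uhrf1 in adult CB, where each WT library held from 15 to 31 of its counts. It likewise limited Dnmt3b in adult forebrain. There its counts ran from 15 to 24 in WT and 10 to 29.4 in HET libraries of CX, and from 16.7 to 29 in WT libraries of HIP.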

Other observations

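Over the 51 WT libraries the members also differed in how their log2 CPM went with markers of other cell types, which is given as a description since these libraries share period, region and mice. The score of the neuronal markers (Rbfox3, Snap25, Syt1, Tubb3 and Stmn2) had an r of 0.363 with Dnmt3a and 0.435 with Mbd2, and of −0.744 with Dnmt1, −0.778 with Dnmt3b and −0.695 with Uhrf1. The score of the astrocyte markers (Aqp4, Gfap, Slc1a3 and Aldh1l1) had an r of 0.737 with Mbd2, −0.666 with Mbd1 and −0.637 with Tet2. In the 51 HET libraries the neuronal values were 0.264 for Dnmt3a and 0.497 for Mbd2, and the astrocyte values were 0.758 for Mbd2, −0.673 for Mbd1 and −0.654 for Tet2.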
